A study of Homo sapiens with 4 samples.

Results

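The MYB locus held 1 anti-HA peak in each of 3 of the 4 deposited peak lists, and it was the site with the highest fold enrichment of the second induced library although the other 2 libraries that listed it came from cells given no doxycycline. Members were all listed peaks whose summit lay in the window chr6:135490000-135550000 (hg19), which holds the MYB gene at chr6:135502453-135540311 and sequence on both sides. The window contained 3 of the 2177 peaks of the 4 lists: 0 of 823 in induced 1, 1 of 1338 in induced 2, 1 of 5 in uninduced 1 and 1 of 11 in uninduced 2. The site was selected on its measured presence, width and fold in these lists, so these values are given as a description and were not tested.

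The study mapped where SNAIL1, a transcriptional repressor whose expression makes epithelial cells take on mesenchymal traits, sits on chromatin in LS174T, an established human colorectal adenocarcinoma line. All 4 libraries came from the same engineered line, pN1-LS174T Snail1-HA, in which doxycycline turns on a murine SNAIL1 with a hemagglutinin epitope (HA), so the uninduced cells carry the construct as well. Induced 1 and induced 2 were given 0.1 mg/ml doxycycline for 6 h, and uninduced 1 and uninduced 2 received none. Every library was precipitated with an anti-HA antibody after fixation in 1% formaldehyde for 5 min. Replicates are biological according to the series text, but the labels do not say whether the line was a single clone or the replicates came from separate cultures, so their spread may be partly technical.

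MYB encodes c-MYB, a DNA-binding transcription factor that keeps progenitor cells dividing. It is best known from blood-forming cells, and it is also needed in the proliferating crypt cells of the colon and is often highly expressed in colorectal cancer. Transcription of the gene is known to be restrained by stalling of the polymerase in its first intron. SNAIL1 and related zinc-finger repressors bind the E-box CAGGTG, which reads CACCTG on the opposite strand. In RefSeq's gene order the protein-coding neighbours of MYB are HBS1L, a translation factor, on the one side and AHI1, a gene needed for the primary cilium, on the other.

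On hg19 the peak of induced 2 began 129 bp before the start of MYB, and both uninduced peaks began after it. The sequence just upstream of the gene is therefore shown. These 250 bases end immediately before the gene's start in RefSeq (GRCh38.p14, chr6:135181058-135181307, plus strand), and the capitals mark CpG dinucleotides.
MYB upstream: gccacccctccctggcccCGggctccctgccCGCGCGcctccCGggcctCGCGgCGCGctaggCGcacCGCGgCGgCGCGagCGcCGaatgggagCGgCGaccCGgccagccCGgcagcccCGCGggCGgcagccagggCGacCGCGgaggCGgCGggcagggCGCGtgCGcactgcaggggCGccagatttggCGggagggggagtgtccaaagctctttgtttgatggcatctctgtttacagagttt
This stretch was 75.6% G and C and held 34 CpG dinucleotides. It contained 0 matches to CAGGTG or CACCTG and 0 matches to the general E-box CANNTG, whose reverse complement has the same form. In the 300-base window that adds the 50 bases after the start, the GC content was 71%, against a median of 58.3% over the promoters of 27305 genes, 1 per symbol. The same window of MYB held 35 CpG dinucleotides, against a median of 14, and 14% of promoters held as many or more. It had 0 SNAIL1 boxes, where 20.6% of promoters had at least 1, and 0 general E-boxes, where 68.9% had at least 1. The peaks are on hg19 and the sequence is on GRCh38, and positions were not carried between the builds. Most of the peak lies downstream of these bases, and the sequence under it was not analysed here.

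Promoters of genes related to MYB gave a comparison for the SNAIL1 box. Of 27 genes besides MYB in the lists (the MYB family, its neighbours on chromosome 6, its cofactors, its target genes and genes of crypt progenitors), 21 were matched in the RefSeq promoter table. A SNAIL1 box was present in 6 of these 21, where 20.6% of all promoters had one, and a general E-box in 15, where 68.9% had one. MYBL2, the MYB relative that drives cell cycle genes, had 1 SNAIL1 box. CREBBP, which encodes an acetyltransferase that c-MYB recruits, had 1, and EP300, its close relative, had 0. HBS1L and AHI1 had 0 each. Whether these genes held peaks was not analysed here, since their hg19 positions were not used.

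**Figure D1:**
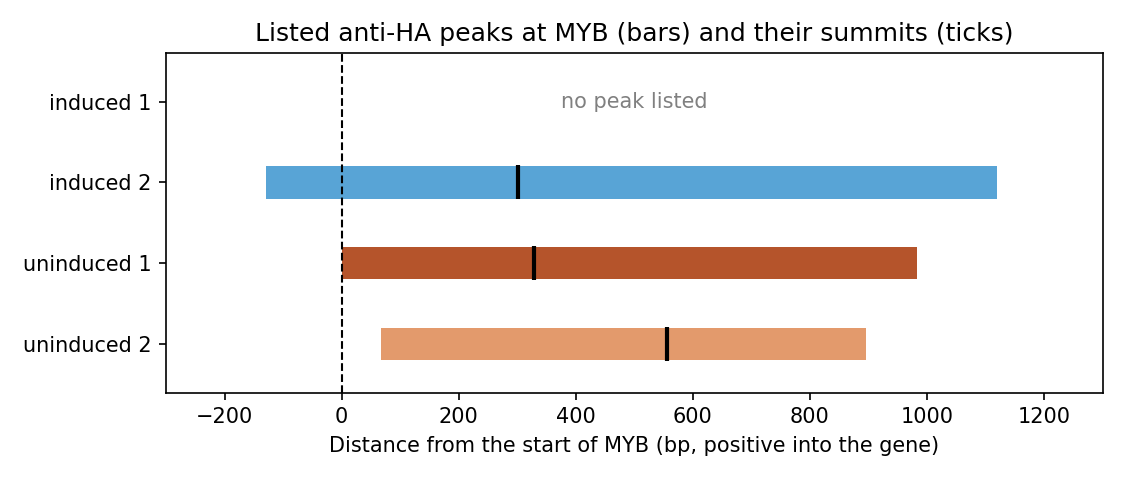
Extent of the listed peak at MYB in each library, in bp from the start of the gene, with bars for the listed peak and ticks for its summit. The 3 peaks are nested, their summits lie 302, 328 and 556 bp inside the gene, and induced 1 lists none.

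The peak lay at the 5′ end of MYB, mainly inside the gene rather than before it. In induced 2 it ran over chr6:135502324-135503572, from 129 bp before the start of MYB to 1119 bp after it. In uninduced 1 it ran over chr6:135502454-135503436, beginning 1 bp after the start. In uninduced 2 it ran over chr6:135502520-135503349, beginning 67 bp after the start. The peaks were thus nested: that of uninduced 2 lay wholly within that of uninduced 1, which lay wholly within that of induced 2. All 3 lists had 830 bp in common, out of a union of 1249 bp. Of this union 1120 bp lay in the gene, which is 2.96% of the gene's length, and the remaining 36739 bp of the gene held no listed peak. The name promoter therefore covers only part of the listed region, as only the peak of induced 2 extended upstream of the start. Exons and introns were not assigned, as no hg19 annotation was used.

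The 3 summits did not fall on 1 position. The summit, the base with the most reads, was at 135502755 in induced 2, at 135502781 in uninduced 1 and at 135503009 in uninduced 2. The summits of induced 2 and uninduced 1 were 26 bp apart, and that of uninduced 2 was 228 bp from the summit of uninduced 1 and 254 bp from that of induced 2. The middles of the 3 peaks lay closer together, at 495, 492 and 481 bp from the start in the same order. The 3 other sites listed in both uninduced libraries had tighter summits: over all 4 lists they ranged over 15 bp at the site on chromosome 1, 91 bp at the one on chromosome 2 and 82 bp at the other on chromosome 6. Between the uninduced libraries alone, the summits of these sites differed by 3, 47 and 25 bp, against 228 bp at MYB.

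Among the libraries that listed a peak at MYB, enrichment was highest in induced 2 and lowest in uninduced 2. Fold enrichment is the authors' value for reads at the summit over the local background. It was 29.3 in induced 2, 14.4 in uninduced 1 and 6.47 in uninduced 2. The corresponding −log10 q, the peak's adjusted p on a log scale, was 188.8 in induced 2, 75.9 in uninduced 1 and 18.3 in uninduced 2. The uninduced mean was 10.4 ± 5.61 (SD, n = 2), a wide spread for 1 condition. The fold in induced 2 was 2.03 times that in uninduced 1 and 4.53 times that in uninduced 2. With a single induced value there was no spread to set this against.

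Reads at the summit followed the same order. They were recovered from the listed fold and p, so this order is not a measure separate from the fold. They are given with 95% exact Poisson intervals that cover counting error only. In induced 2, 174 reads (149.1 to 201.9) covered the summit, over a local background of 4.97 reads on the scale of that library. In uninduced 1, 102 reads (83.2 to 123.8) covered it, over a background of 6.15. In uninduced 2 there were 47 reads (34.5 to 62.5) over a background of 6.42. The 3 intervals did not overlap, while the backgrounds lay between 4.97 and 6.42 reads. Library depths were not listed, so reads cannot be compared between libraries as levels of binding.

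**Figure D2:**
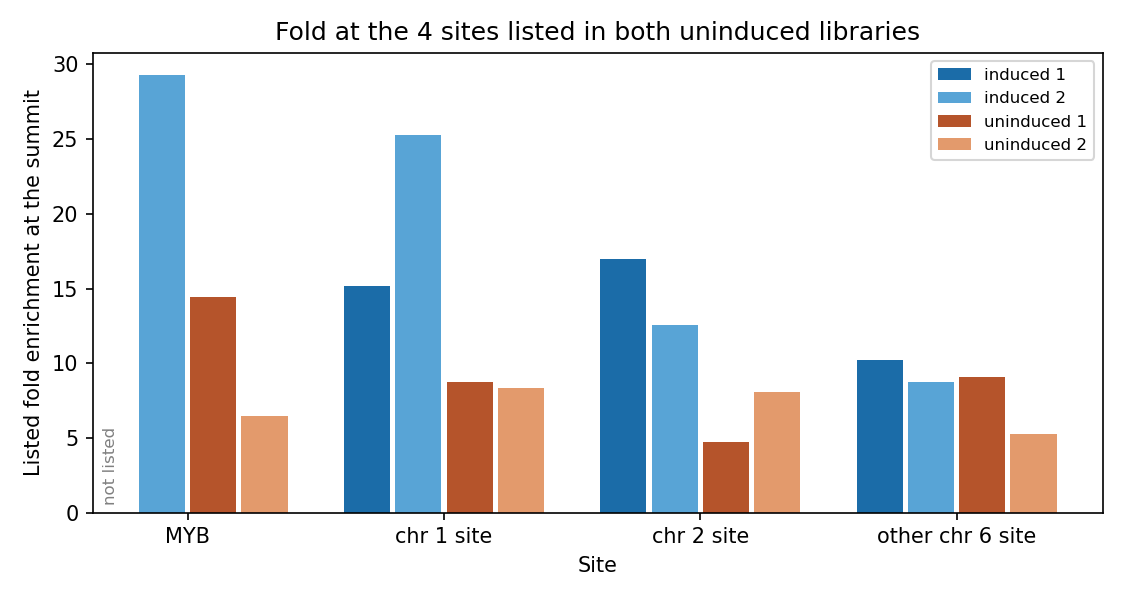
Listed fold enrichment (linear axis from 0) of the 4 sites with a peak in both uninduced libraries, with 1 bar per library. MYB has the highest fold of induced 2 (29.3) and of uninduced 1 (14.4), and no value in induced 1.

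Setting MYB beside the other sites of the uninduced lists avoids comparing depths, as each ratio is taken within a library. Both uninduced lists held 4 sites in common, MYB and 3 others, near 236332334 on chromosome 1, 236279756 on chromosome 2 and 169313392 on chromosome 6. The fold at MYB was 2.33 times the median of the 3 others in induced 2 and 1.64 times in uninduced 1. In uninduced 2 it was 0.801 times their median. MYB was therefore the highest of these 4 sites in induced 2 and uninduced 1 but the third in uninduced 2, and the uninduced mean of the ratio was 1.22 ± 0.595 (SD, n = 2). Taken over reads instead of folds, the ratio was 1.91 in induced 2, 1.89 in uninduced 1 and 0.681 in uninduced 2.

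**Figure D3:**
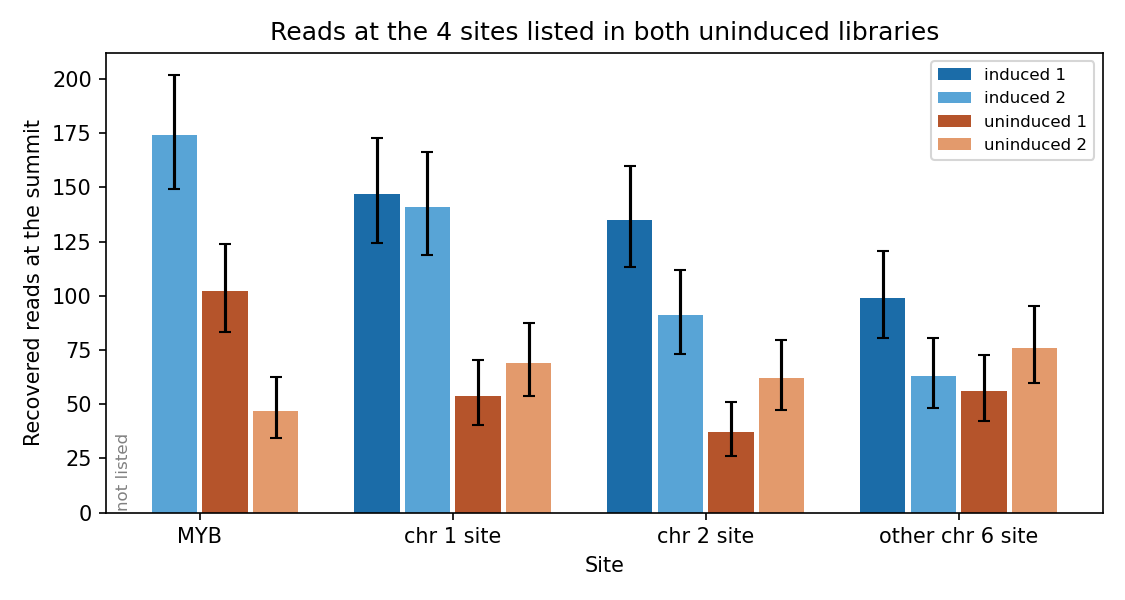
Recovered reads at the summit of the same 4 sites in each library (linear axis from 0), with 95% exact Poisson intervals as error bars. MYB is the only one of the 4 with more reads in uninduced 1 than in uninduced 2. At the other sites the intervals of the uninduced libraries overlap, but intervals cover counting error only. Reads of induced 1 are shown before the scaling down of its pileups.

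The uninduced replicates differed at MYB in the opposite direction to the other sites in reads. Uninduced 1 had 2.17 times the reads of uninduced 2 at MYB. At the other sites it had fewer, by a ratio of 0.783 on chromosome 1 (54 against 69 reads), 0.597 on chromosome 2 (37 against 62) and 0.737 on chromosome 6 (56 against 76). At each of these other sites the Poisson intervals of the uninduced libraries overlapped, unlike at MYB. The intervals cover counting error only, and MYB was selected on its fold, so this is a description. The depths of the libraries are unknown, and the difference in direction was not tested. In fold the ratio of uninduced 1 to uninduced 2 was 2.23 at MYB, 1.05 at the site on chromosome 1, 0.586 at that on chromosome 2 and 1.72 at that on chromosome 6. The direction in fold was hence not particular to MYB. At the other site on chromosome 6 the local background was 5.29 reads in uninduced 1 and 13.6 in uninduced 2.

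The 3 other sites were all listed in induced 1, which had no peak at MYB. The site on chromosome 1 had 15.1-fold enrichment and 147 reads in induced 1, and 25.3-fold and 141 reads in induced 2. The site on chromosome 2 had 16.9-fold and 135 reads in induced 1, and 12.6-fold and 91 reads in induced 2. The other site on chromosome 6 had 10.2-fold and 99 reads in induced 1, and 8.73-fold and 63 reads in induced 2. Reads in induced 1 were thus 1.04 to 1.57 times those in induced 2 at these sites. Over the 660 peaks of induced 2 that overlapped a peak of induced 1, the reads in induced 1 were 1.23 times those in induced 2 in total. The peaks of induced 1 had between 28 and 196 reads and folds between 2.29 and 20.4. The lists give no value where no peak was called, so the level at MYB in induced 1 is unknown, and the missing peak does not show that reads were absent.

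**Figure D4:**
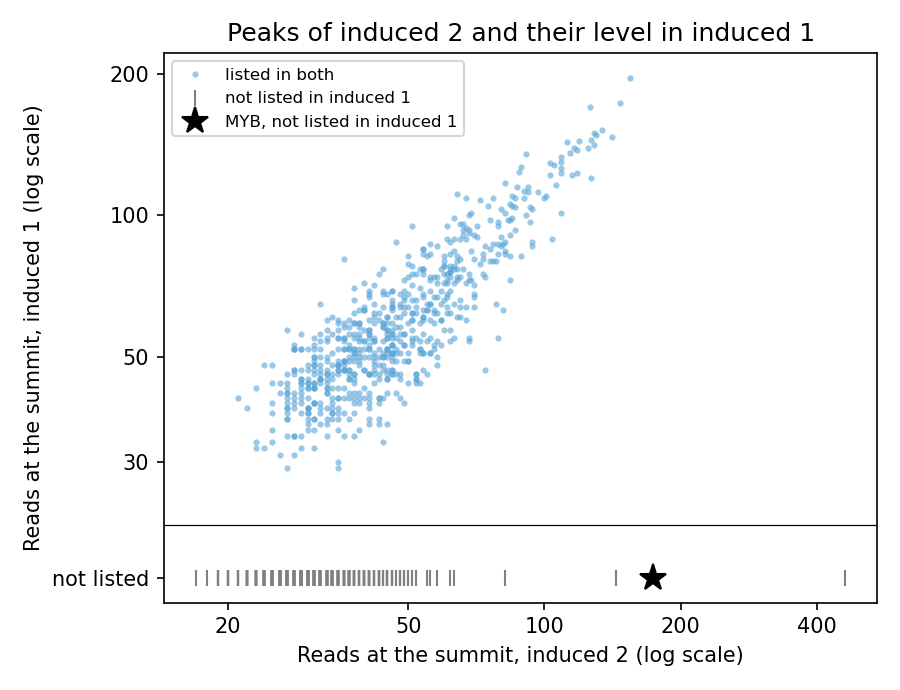
Each peak of induced 2 by the reads at its summit (horizontal, log scale) and the reads of the overlapping peak in induced 1 (vertical, log scale), with peaks that induced 1 does not list in a strip at the bottom. MYB, the star, has 174 reads in induced 2, while most marks in the strip are at low reads. Reads of induced 1 are shown before the scaling down of its pileups.

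A missing counterpart in induced 1 was common among the peaks of induced 2, but not among the strong ones. Of the 1338 peaks of induced 2, 678 (50.7%) had no overlapping peak in induced 1. Among the 82 peaks with a fold of 10 or more, 80 had a counterpart. The others were MYB and a peak on chromosome 2 at 122777062 to 122777431, with 11.2-fold enrichment and 62 reads. Among the 33 peaks with 100 or more reads, 30 had a counterpart. Those without were MYB and 2 peaks of low fold over a high background. One of the latter, on chromosome 21 at 9826067 to 9826356, had 462 reads over a background of 365 (1.26-fold). The other, on chromosome 1 at 236260323 to 236260817, had 144 reads over a background of 75 (1.91-fold).

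No other site in the 4 lists had the presence pattern of MYB. After overlapping peaks were joined, the lists held 1504 sites, and MYB was the only one found in induced 2 and both uninduced libraries but not in induced 1. Only the 4 sites listed in both uninduced libraries could have had this pattern. MYB was selected on its presence, so the pattern is a description. Peaks of induced 2 that overlapped an uninduced peak numbered 7 (0.523%), and those that did so without a counterpart in induced 1 numbered 2 (0.149%), MYB included. The nearest patterns matched MYB in 3 of the 4 lists, which 4 sites did. By summed absolute log2 difference in fold, the closest was the site near 236332334 on chromosome 1, at 1.30 over 3 shared lists, followed by the other chromosome 6 site at 2.71 over 3 lists. The next was a peak on chromosome 3, at 2.75 over 2 shared lists, which was in induced 2 (182833943 to 182834246, 5.52-fold, 30 reads) and uninduced 2 (5.11-fold, 35 reads). Its folds were slightly above the list medians of 4.91 in induced 2 and 5.03 in uninduced 2, and its reads were below the medians of 35.0 and 69.

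**Figure D5:**
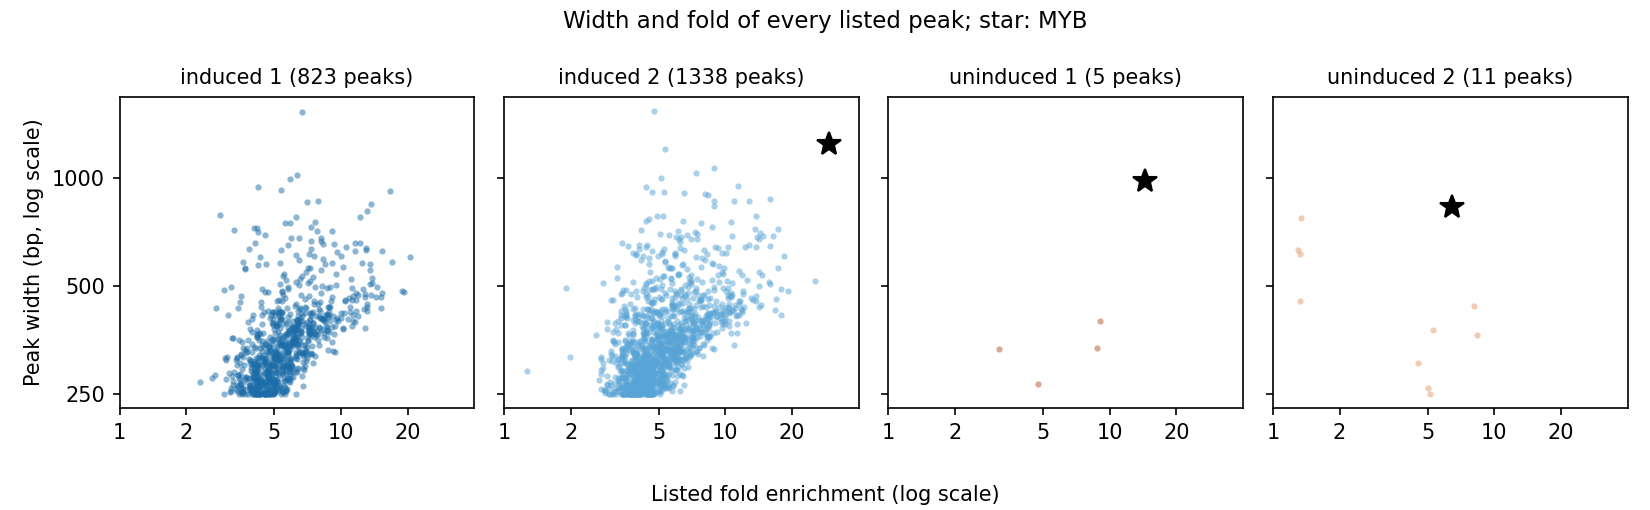
Width in bp against listed fold enrichment for every peak of the 4 lists (both axes on a log scale), with MYB as a star. MYB is the peak with the highest fold and the second in width in induced 2, and the widest in both uninduced lists.

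The MYB peak was also wide. Its width was 1249 bp in induced 2, 983 bp in uninduced 1 and 830 bp in uninduced 2, against list medians of 336.5, 337 and 441 bp. These are 3.71, 2.92 and 1.88 times the medians. MYB was the widest peak in both uninduced lists, and the second of 1338 in induced 2. The 3 other sites of the uninduced lists measured 267 to 583 bp over all 4 lists, so none of their 12 peaks was as wide as the narrowest peak at MYB.

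Strong peaks of induced 2 were often wide as well, and MYB exceeded the other strong peaks on both measures. The next 4 folds of that list were 25.3 for the site near 236332334 on chromosome 1, 19.2 on chromosome 10 at 7860102 to 7860585, 18.4 on chromosome 17 at 7165549 to 7166155 and 17.9 on chromosome 1 at 54304004 to 54304420. These 4 peaks were 519, 484, 607 and 417 bp wide. The median width of the 82 peaks with a fold of 10 or more was 474 bp, against 336.5 bp for the whole list, and apart from MYB they measured 342 to 951 bp. The widest of these besides MYB, singled out after its values were seen, lay on chromosome 7 at 139709037 to 139709987 with 11.4-fold enrichment. The peaks of 1000 bp or more besides MYB all had folds under 10. The widest, on chromosome 4 at 3310608 to 3312153, measured 1546 bp at 4.74-fold enrichment. The next after MYB were on chromosome 11 at 63880853 to 63882060 (1208 bp, 5.33-fold), chromosome 20 at 62446570 to 62447642 (1073 bp, 8.87-fold) and chromosome 9 at 129676810 to 129677847 (1038 bp, 7.37-fold). In all, 6 peaks of induced 2 were 1000 bp or wider, and the 5 besides MYB all had a counterpart in induced 1.

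Within its own lists the site ranked high on each measure except in uninduced 2. By fold it was at the top of induced 2 and uninduced 1 and the third of 11 in uninduced 2. By p it was at the top of induced 2 and uninduced 1 and the fourth of 11 in uninduced 2. By reads it was the second of 1338 in induced 2, behind the 1.26-fold chromosome 21 peak, the top of uninduced 1 and the eighth of 11 in uninduced 2. In that last list 4 of the peaks ahead of it in reads had folds of 1.30 to 1.35.

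The other listed peaks within 5 Mb of MYB lay on the AHI1 side. Chromosome 6 held 36 peaks in induced 1, 60 in induced 2, 2 in uninduced 1 and 4 in uninduced 2. The nearest peak to MYB, outside the window, lay 0.0856 Mb beyond the MYB summit in the direction of AHI1. It was listed in both induced libraries and in neither uninduced one, with 7.55-fold enrichment and 62 reads in induced 1 (chr6:135588241-135588600) and 6.62-fold and 49 reads in induced 2 (chr6:135588229-135588620). In induced 2, 4 further peaks followed on that side within 5 Mb, at 1.37, 1.86, 2.98 and 4.19 Mb from the start of MYB. Their folds were 3.96, 2.99, 4.06 and 5.63. None of them was listed in induced 1, which was also true of 678 of the 1338 peaks of induced 2 (50.7%). The neighbour at 0.0856 Mb had the opposite presence pattern to MYB in 3 of the 4 libraries, all but induced 2. On the HBS1L side the nearest peak was 16.2 Mb away in induced 1 and 12.4 Mb away in induced 2. As induced 1 had no MYB summit, its distances were taken from the mean MYB summit of the other libraries. In the uninduced libraries the nearest peak on the chromosome was the shared site near 169313392, 33.8 Mb from MYB in each.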

How the data were processed

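Anti-HA ChIP-seq was done on 4 libraries, 2 induced and 2 uninduced, grouped by their titles. Tools named in the submitters' processing notes are MACS2 2.1.1.20160309, BWA 0.7.15 and Trimmomatic 0.36, with build hg19. For the peak threshold, duplicate handling and the control of each library nothing is stated there. Per library, not pooled, the authors deposited a narrowPeak list with a fold enrichment over background, the −log10 p and −log10 q, and a score for each peak. In 2177 of 2177 lines the deposited score equalled −log10 q multiplied by 10, without decimals. No read totals are listed, so depth is unknown.

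Reads at summits were recovered by solving MACS2's definitions of fold (both terms raised by a pseudocount of 1) and p for the pileup and background (Python 3.11.15, scipy 1.17.1). A whole pileup within 0.01 was found for 823, 1338, 5 and 11 peaks, which is all of them. In induced 1 pileups had been scaled down by 1.40, and its reads and backgrounds are given before that scaling. On simulated peaks 100% were recovered, for 150 unscaled and for 150 scaled pileups. These peaks were made with the same definitions and a narrower range of reads and backgrounds than the lists hold. The simulation thus checks the solving only, not whether the definitions hold for the deposited values. Peaks overlapping by at least 1 bp were joined into sites.

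The site, the gene lists and the comparisons were chosen with earlier results of these data known. The genes or peaks named were MYB, the other sites in both uninduced lists, the 3 sites most like MYB in presence and then in log2 fold, the 5 highest folds and 5 widest peaks of induced 2, the nearest peaks on chromosome 6, and genes of the lists. Strong peaks of induced 2 missing from induced 1 were named after their values were seen. No test was made. The count of peaks at list genes was not run, since the gene table is on GRCh38.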

Additional observations from a re-analysis of the deposited data

How the results depend on the processing

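MYB was listed in 3 lists under any overlap with the window, the gene body alone, 1 kb either side of the start, a fold of at least 5 or a −log10 q of at least 5, and in 2 to 3 lists with 1 library left out. These counts were fixed by the values on which the site was selected, as all 3 peaks met each setting. They are therefore no check on its presence. The uninduced mean of the ratio of fold at MYB to the other shared sites was 1.22 and ranged from 0.801 to 1.64 with 1 uninduced library left out, so its direction rested on uninduced 1. In induced 2 this ratio fell from 2.33 to 1.72 when only the 2 other sites with a fold of at least 5 in both uninduced lists were used, which are fewer sites. The strongest 25% of each list by fold, rounded up to whole peaks, gave another median width. With it the width ratio was 2.96 in induced 2, against 3.71, and 1.65 for the uninduced mean, against 2.4. The 2.4 ranged from 1.88 to 2.92 with 1 uninduced library left out. The strongest 25% included MYB itself in each list that held it, so its own width entered the median. In uninduced 1, a list of 5 peaks, this lowered the ratio by construction. The middle of the peak in place of the summit moved the position in induced 2 from 302.0 to 495.0 bp, and the uninduced mean from 442.0 to 486.5 bp, with 328.0 to 556.0 bp when 1 library was left out. The distances to the nearest peak did not change at a fold of at least 5, and the MYB promoter had 0 matches to the SNAIL1 box and to the general E-box alike. No paired analysis was possible because no result comes from a test and induced 1 has no value at MYB. The alternatives for peaks at list genes were not run.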
